A study of Drosophila melanogaster with 4 samples.

Results

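The regions described here are the histone H3 clusters in the interior of chromosome arm 2L of *Drosophila melanogaster*, 2768 of the 18424 clusters in the series-wide list (15.0%). A cluster is a stretch in which the authors called H3 enriched by chromatin immunoprecipitation and sequencing (ChIP-seq). Members were chosen by position alone, as clusters on 2L whose midpoint lay between bases 2000001 and 21011544 of FlyBase release 5, so that 2 Mb at each end of the arm was left out. The same rule took 541 of 3717 clusters of ChIP replicate 1 and 298 of 2198 clusters of ChIP replicate 2. The last cluster outside the distal limit (1997684-1999310) scored 0.36 and the first inside it (1999986-2001856) scored 0.40 on the authors' log2 scale. At the proximal limit, the last cluster inside (21008058-21010032) scored 0.40 and the first outside (21023628-21024682) scored 0.47.

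H3 is a core histone, and DNA wrapped around an octamer of core histones forms the nucleosome, the repeating unit of chromatin. An antibody against H3 as a whole recovers nucleosomes regardless of most of their modifications, so such a ChIP maps where nucleosomes are crosslinked and recovered, and it often serves as the reference for maps of modified histones. Arm 2L is the left arm of a large autosome. Its low coordinates lie next to the telomere and its high coordinates approach the pericentric heterochromatin, and the interior is largely gene-bearing euchromatin.

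The embryos were wild-type Oregon-R (Oregon-R-modENCODE), collected at 14 to 16 h of development from flies kept in population cages. They were fixed with 1.8% formaldehyde. Chromatin came from whole embryos and thus mixes all their cell types. There were 2 ChIP libraries made with H3 antibody3 and 2 input libraries, which carry the same replicate numbers as the ChIP libraries. Read depth per library is unknown, separate embryo collections for the replicates are not stated, so their spread may be technical, and no gene annotation of release 5 was used here, so regions are named by position.

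Clusters lay along the whole interior, and the series-wide list held several times as many as either replicate. The series-wide members covered 4.46 Mb, or 23.4% of the 19.01 Mb interval, at 145.6 clusters per Mb. Replicate 1 had 28.5 clusters per Mb over 4.56% of the interval. Replicate 2 had 15.7 clusters per Mb over 2.46% of it. The replicate mean was 22.1 ± 9.04 clusters per Mb (SD, n = 2), so the replicates themselves differed widely in how much was called. The sources used here do not give how the authors built the series-wide list from the replicates.

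The interval was divided into 190 complete bins of 100 kb, and the remaining stub at its proximal end held 2 members. No bin was empty in the series-wide list. Its bins held 5 to 28 members, with a median of 15 and the middle part of the bins (25th to 75th percentile) between 11 and 18. Replicate 1 had 0 to 9 clusters per bin with a median of 3, and 21 bins (11.1%) had none. Replicate 2 had 0 to 7 with a median of 1, and 50 bins (26.3%) had none. The variance of the bin counts was 1.55 times their mean for the series-wide members, 1.35 times for those of replicate 1 and 1.43 times for those of replicate 2. That ratio was 0.870 in the series-wide list once clusters within 1000 bp of each other were merged, which lowers the count of crowded bins by construction.

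**Figure D1:**
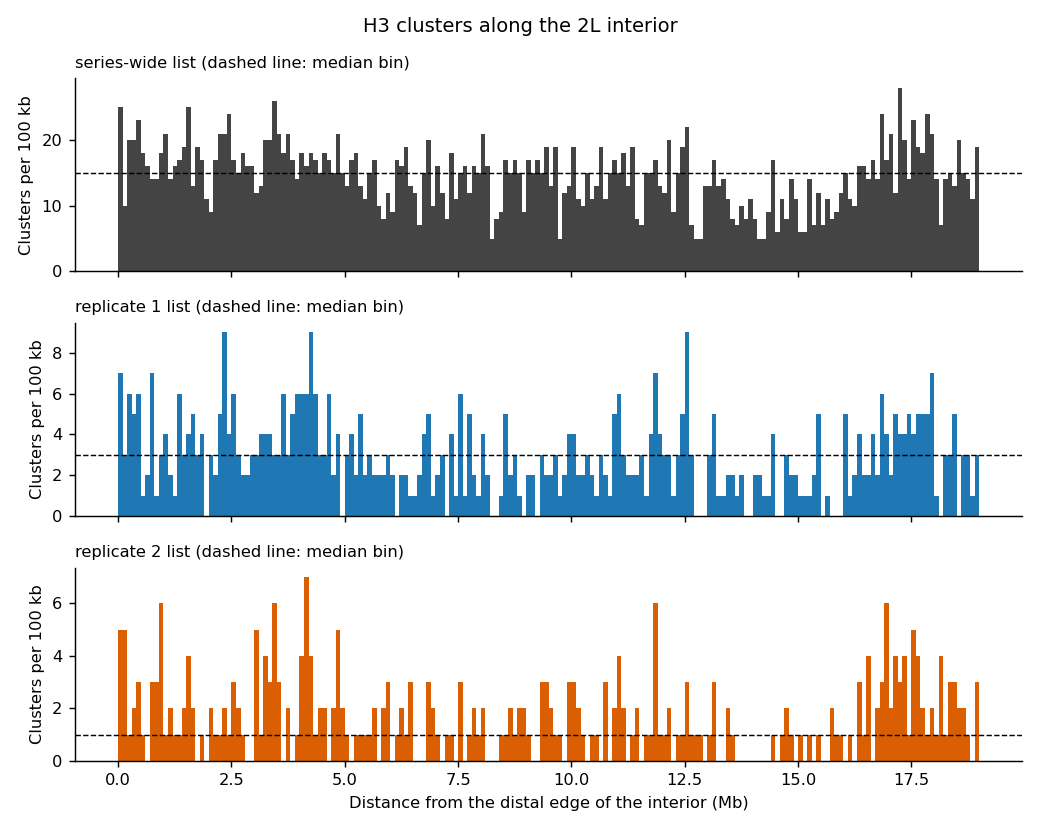
Number of H3 clusters (y axis) in each 100-kb bin of the 2L interior against the distance of the bin from the distal edge of the interior in Mb (x axis), for the series-wide list and both ChIP replicates. The dashed lines mark the median bin (15, 3 and 1), and all 3 lists are sparse at a distance of about 14 to 16 Mb and dense near 17 Mb.

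The broad course of density was a cluster-rich distal stretch, a long middle of lower density, a sparse stretch and a second rich stretch. Boundaries of these 4 stretches were set after the values were seen, so the contrasts between them are in part built in. From 2 to 7 Mb the series-wide list held 876 members, or 175.2 per Mb, 1.20 times the mean of the interior. The replicates stood at 1.39 and 1.40 times their own means there (mean 1.40 ± 0.0084, SD, n = 2). From 7 to 16 Mb the series-wide density was 134.2 per Mb, 0.922 times its mean, with 0.839 and 0.765 in replicates 1 and 2.

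The sparse stretch ran from 16 to 18 Mb. It held 186 series-wide members, or 93.0 per Mb, 0.639 times the mean of the interior. Replicate 1 had 28 clusters in these 2 Mb (0.492 times its mean) and replicate 2 had 12 (0.383 times), a replicate mean of 0.437 ± 0.077 (SD, n = 2). All 3 lists were lower here than over the arm interior as a whole. The limits were chosen for low counts, and nearly all replicate clusters overlapped a series-wide cluster. Low replicate counts here are thus in part built in. How much of this stretch reads could be placed on was not measured. The longest run of bins below the series-wide median lay inside it, 15 bins from 16500001 to 18000000, with a mean of 9.47 series-wide members per bin against 14.6 over all bins. In the same run replicate 1 averaged 1.20 clusters per bin against 2.85 over all bins. Replicate 2 averaged 0.733 against 1.57. The run was chosen by the series-wide counts, so these low replicate values are in part built in too.

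Density rose again from 18 to 21 Mb, to 165.3 series-wide members per Mb (1.14 times the mean), with 1.17 and 1.45 times in replicates 1 and 2. Within it, 19000001-20000000 was the densest of the 19 windows of 1 Mb in the series-wide list, with 200 members over 33.1% of its bases. The next window, 20000001-21000000, was no richer than the mean in the series-wide list (0.975 times) or in replicate 1 (0.773 times), and stood at 1.28 times in replicate 2. The window 19000001-20000000 was also the densest window of replicate 1, with 46 clusters, and held 28 in replicate 2, where 2 windows had 29. The least dense window was 17000001-18000000, with 92 members over 12.8% of its bases. It held 11 clusters in replicate 1, the fewest of any window there, and 7 in replicate 2, whose lowest count was 5 in the neighbouring window 16000001-17000000. The lowest and the highest series-wide windows thus stood 1 Mb apart.

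**Figure D2:**
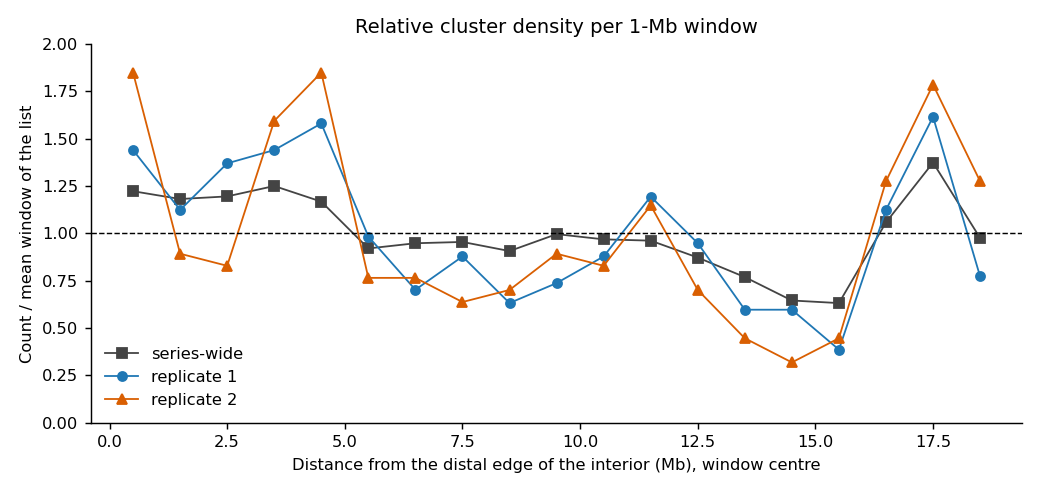
Number of clusters in each of 19 windows of 1 Mb divided by the mean window of the same list (y axis) against the distance of the window's centre from the distal edge of the interior in Mb (x axis). Lines join the windows of the series-wide list (squares), replicate 1 (circles) and replicate 2 (triangles); in the window from 19 to 20 Mb of the arm they stand at 1.37, 1.62 and 1.79, and in that from 17 to 18 Mb at 0.632, 0.386 and 0.446.

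Over the 19 windows the counts of replicate 1 and replicate 2 went together (Spearman's rho = 0.825, Pearson's r = 0.845). Over the 190 bins of 100 kb the relation was looser, with rho = 0.407 and r = 0.410. These are descriptions across positions of 1 arm, which share libraries and the sequence on which reads can be placed, and neighbouring bins are not independent. The relation over bins was weaker when deviations of each bin from its own 1-Mb window were compared, with rho = 0.228 and r = 0.262. Within the stretches rho was 0.175 from 2 to 7 Mb (50 bins), 0.392 from 7 to 16 Mb (90 bins), 0.0043 from 16 to 18 Mb (20 bins) and 0.195 from 18 to 21 Mb (30 bins). With so few clusters per bin, the weak values among these are no finding.

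Bins were also chosen in 1 replicate and read in the other, without the series-wide list, and richer bins of the first were on average richer in the second. The 20 bins with at least 6 clusters in replicate 1 held on average 2.80 clusters in replicate 2, against 1.57 over all bins. The 21 bins without a replicate 1 cluster held 0.905, and the 28 bins with a single one held 0.750. The other way round, the 5 bins with at least 6 clusters in replicate 2 held 4.60 in replicate 1, against 2.85 over all bins. The 50 bins without a replicate 2 cluster held 1.90. In 9 of the 21 bins without a replicate 1 cluster (42.9%) replicate 2 had none either, against 26.3% over all bins. The share was no lower in the bins with a single replicate 1 cluster, at 13 of 28 (46.4%). In the 9 bins without a cluster of either replicate the series-wide list had 5 to 17 members, with a median of 8.

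The 5 densest bins by the series-wide list lay in the distal and the proximal rich stretches. Bin 19200001-19300000 came first with 28 members over 39.4% of its bases, and had 4 clusters in replicate 1 and 3 in replicate 2. Bin 5400001-5500000 held 26 members over 46.8% of its bases, with 3 and 6 clusters in replicates 1 and 2. Bin 2000001-2100000, the first of the interval, held 25 with 7 and 5, and bin 3500001-3600000 also held 25 with 4 and 4. These 4 bins had at least as many clusters as the median bin in both replicates. Of 3 bins with 24 members, the others being 18800001-18900000 and 19800001-19900000, bin 4400001-4500000 ranked first by covered bases. It had 4 clusters in replicate 1 and 1 in replicate 2, the latter no more than the median bin of that list, whereas 18800001-18900000 had 6 and 3. Together the 5 bins stood at 1.55 times the mean bin of replicate 1 and 2.42 times that of replicate 2 (mean 1.98 ± 0.621, SD, n = 2). The series-wide list is by its name a set of the same replicates, so a high count in them is in part built in.

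The bins that came first in a replicate were others, apart from ties. In replicate 1 the 3 densest bins, each with 9 clusters, were 6200001-6300000, 4300001-4400000 and 14500001-14600000. Replicate 2 had 4, 2 and 3 clusters in them, all above its median bin of 1. In replicate 2 the densest bin was 6100001-6200000, with 7 clusters, where replicate 1 had 6 and the series-wide list 16. Of the 4 bins with 6 clusters, which include the series-wide second 5400001-5500000, the first by covered bases were 2900001-3000000 and 18900001-19000000, where replicate 1 had 3 and 4. The densest bin of replicate 2 thus lay next to 1 of the 3 bins that tied as densest in replicate 1, and the series-wide list had 16 and 18 members in these neighbouring bins against a median of 15.

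The emptiest bins lay in the middle of the arm and in the sparse stretch, where 6 bins had 5 members in the series-wide list, of which the 5 with the least covered length are named. Bin 14800001-14900000 had the least, 5442 bp, with no cluster in replicate 1 and 1 in replicate 2. Its neighbour 14700001-14800000 also had 0 and 1. Bin 11700001-11800000 had 1 and 1, and bin 16100001-16200000 had 2 and 0. Bin 10200001-10300000 was the only bin among these 5 without a cluster in either replicate. Together the 5 bins stood at 0.211 times the mean bin of replicate 1 and 0.383 times that of replicate 2 (mean 0.297 ± 0.122, SD, n = 2). These ratios rest on 3 clusters in each replicate. Since the bins were chosen by the series-wide list, low counts in the replicates are in part built in.

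Neighbouring members were mostly a few kb apart. The median gap between the end of a cluster and the start of the next was 3189 bp in the series-wide list, with a 25th percentile of 1213 bp and a 75th percentile of 6748 bp. The mean gap was 5260 bp, pulled up by a tail of long gaps. In all, 587 of 2767 gaps (21.2%) were under 1 kb and the shortest was 1 bp. The replicates, with fewer clusters, had median gaps of 19523 and 33628 bp (mean 26575.5 ± 9974 bp, SD, n = 2). By 1-Mb window the series-wide median gap ran from 1759 bp in 19000001-20000000 to 6809 bp in 17000001-18000000, the same windows that had the most and the fewest members. The gaps in a window are in large part set by its number of members (rho = -0.937 over windows).

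**Figure D3:**
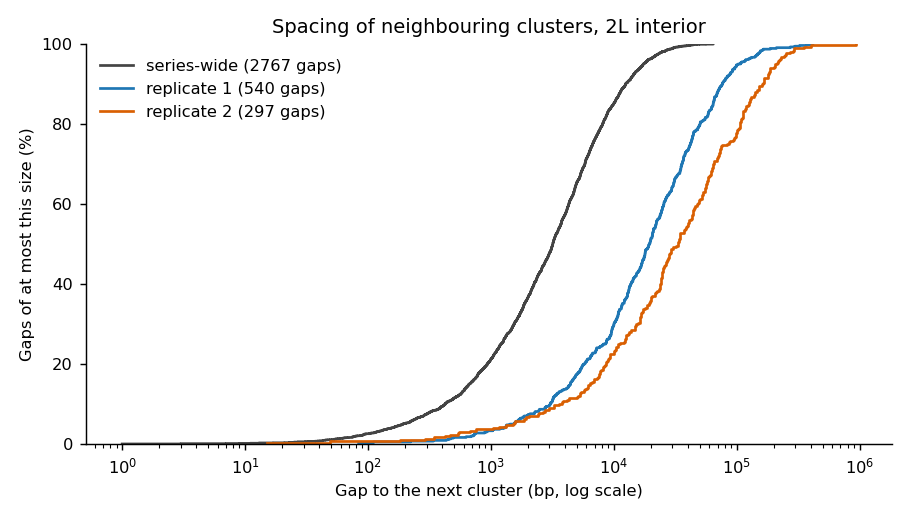
Share of gaps no longer than a given size (y axis, %) against the gap between neighbouring clusters in bp (x axis, log scale), for the 2767 series-wide gaps, 540 gaps of replicate 1 and 297 of replicate 2. The series-wide curve lies far to the left, with a median of 3189 bp against 19523 and 33628 bp.

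Long gaps were few and were most frequent per Mb in the sparse stretch. That stretch was set by its low density, and fewer members leave longer gaps, so this is in part built in. There were 103 gaps over 20 kb in the series-wide list, together 2.90 Mb or 15.3% of the interval. They numbered 12 per Mb from 16 to 18 Mb, 6.22 per Mb from 7 to 16 Mb, 3.00 per Mb from 18 to 21 Mb and 2.60 per Mb from 2 to 7 Mb. Of the 103 gaps, 98 held no complete cluster of either replicate, 1 held a cluster of replicate 1 and 4 held a cluster of replicate 2. Nearly all replicate clusters overlapped a series-wide cluster, as given further on, so empty gaps in the replicates are in part built in.

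The longest series-wide gap was 20124033-20188607, of 64575 bp, outside the sparse stretch. Replicate 1 had no cluster in it. Replicate 2 had a cluster of 1993 bp at 20150287-20152279, whose score of 1.37 was the highest of that replicate in the interior. The second gap, 16678999-16734829 (55831 bp), held no complete cluster of either replicate, though a replicate 2 cluster reached into it. The third, 17005813-17055277 (49465 bp), held a replicate 2 cluster at 17052606-17054072 with a score of 0.86. The fourth, 14718833-14765999 (47167 bp), and the fifth, 17287679-17332607 (44929 bp), were empty in both replicates. With the clusters of all 3 lists counted, the longest gap was 16679007-16734829, of 55823 bp.

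Each replicate had its own, much longer gaps, which held many series-wide members. The longest in replicate 1 was 14623167-15040756 (417590 bp), with 33 complete series-wide members and 2 clusters of replicate 2. The next in replicate 1, 17633647-18005810 (372164 bp), held 4 clusters of replicate 2. The third, 10138480-10464207 (325728 bp), held 1 cluster of replicate 2. In replicate 2 the longest was 15538564-16470931 (932368 bp), with 80 complete series-wide members and 12 clusters of replicate 1. The second, 10042948-10448273 (405326 bp), held 6 clusters of replicate 1, and the third, 8483949-8838357 (354409 bp), held 10. Where these gaps met, 10138480-10448273 (309794 bp) was the longest stretch free of clusters in both. It held 24 complete series-wide members, or 77.5 per Mb, with a median score of 0.40.

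Member lengths were short and skewed. Series-wide members measured 1001 to 9265 bp with a median of 1416 bp, and 114 of the 2768 reached 3 kb. The median was 1514 bp in replicate 1 and 1467 bp in replicate 2 (mean 1490.5 ± 33.2 bp, SD, n = 2), where the shortest cluster measured 1301 bp. By 1-Mb window the series-wide median length ran from 1255 bp in 17000001-18000000 to 1537 bp in 2000001-3000000. Windows with more members had longer ones in the series-wide list (rho = 0.735 and r = 0.756 over 19 windows, a description). The same relation had rho = 0.558 in replicate 1 and -0.0018 in replicate 2, so it did not repeat in the latter.

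The longest member was 14601236-14610500 (9265 bp, score 0.45), which overlapped 2 clusters of replicate 1 and 1 of replicate 2. It ended 12.7 kb before the longest gap of replicate 1 began. The second, 3609906-3617274 (7369 bp, score 0.44), overlapped 1 cluster of each replicate. The third, 5030584-5036898 (6315 bp), scored 0.58, with 0.70 and 0.79 for the clusters it overlapped in replicates 1 and 2, and the replicate 1 cluster was itself 4412 bp long, the longest of that list. The fourth, 6182360-6188230 (5871 bp, score 0.55), overlapped 1 and 2 clusters. It lay in the bin that was densest in replicate 2. The fifth, 19364416-19370222 (5807 bp, score 0.43), overlapped a cluster of replicate 2 only and lay in the densest window.

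Scores of series-wide members varied little along the arm, and those of the replicates varied more between windows. The median score was 0.40 for series-wide members, 0.54 for replicate 1 and 0.66 for replicate 2, and the central 90% of series-wide members lay between 0.31 and 0.49. The medians of the 1-Mb windows ranged from 0.39 to 0.41 for series-wide members, from 0.46 to 0.58 in replicate 1 and from 0.61 to 0.80 in replicate 2. The window medians of the replicates did not rise together (rho = -0.035 and r = -0.284 over 19 windows). The number of members and their median score were also hardly related over windows (rho = 0.170). From 16 to 18 Mb, where density was lowest, series-wide members had a median score of 0.39, with 0.53 in replicate 1 and 0.73 in replicate 2, the latter from 12 clusters.

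A handful of series-wide members scored far above the rest, and none of them was found in a replicate. The highest were 12742970-12743988 and 17199706-17200706, both at 2.17, and 17691288-17692300, at 2.04. The next were 5182262-5183292 at 0.99 and 9477390-9478412 at 0.87. All 5 were between 1001 and 1031 bp long, near the shortest length in the list. In all, 8 members scored above 0.65, with lengths of 1001 to 1289 bp, and none of these 8 overlapped a replicate cluster. Lack of overlap was common, at 73.8% of members and 71.9% over all sequences. Of the 692 shortest members (1001 to 1159 bp) 4.05% overlapped a replicate. All 8 were shorter than the 1301 bp at which the replicate lists began, and whether that difference between the lists bears on their absence was not tested. The highest score among members that overlapped a replicate was 0.62, at 11436816-11440310 (3495 bp), which overlapped clusters scoring 0.71 in replicate 1 and 0.58 in replicate 2.

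**Figure D4:**
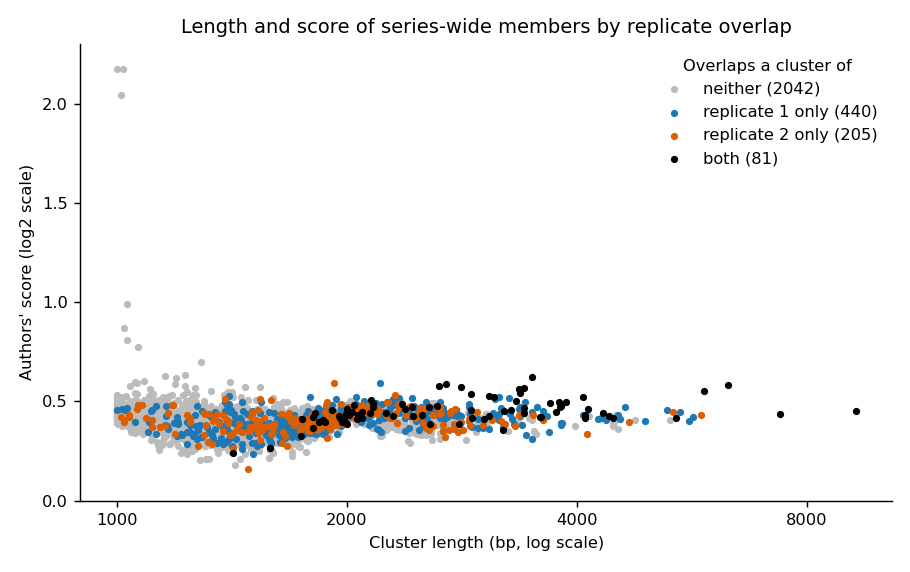
Authors' score on a log2 scale (y axis) against cluster length in bp (x axis, log scale) for the 2768 series-wide members, coloured by the replicate lists they overlap. Members overlapping both replicates (81, black) lie among the longer clusters, and the 3 members above 2 are close to 1000 bp and overlap neither.

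Few single clusters repeated between the replicates. Of the 541 replicate 1 members, 73 overlapped a replicate 2 cluster by at least 1 bp (13.5%, exact Clopper-Pearson 95% interval 10.7 to 16.7). The share was 13.8% over all sequences. Of the 298 replicate 2 members, 72 overlapped replicate 1 (24.2%, interval 19.4 to 29.4), against 23.2% over all sequences. Both shares were close to those of the whole lists, and the intervals cover counting error only. Where clusters did overlap they coincided closely, with a median distance of 213 bp between midpoints and a median overlap of 92.6% of the shorter cluster over the 73 pairs. Replicate 2 scored higher in 66 of these 73 pairs, by 0.12 in the median, and its whole list in the interior scored higher too.

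Shared clusters were somewhat longer and higher-scored than unshared ones in both replicates. In replicate 1 the median length was 1640 bp for shared and 1499.5 bp for unshared members, and the median score 0.56 and 0.53. In replicate 2 the lengths were 1510.5 and 1460 bp and the scores 0.68 and 0.65. These are descriptions without a test, and longer clusters overlap others more often by chance. Scores within the 73 pairs were weakly related (rho = 0.245 and r = 0.232).

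The series-wide list took in 525 of the 541 replicate 1 members (97.0%, against 98.2% over all sequences) and 285 of the 298 replicate 2 members (95.6%, against 95.9%). Conversely 521 series-wide members overlapped replicate 1 (18.8%, against 19.6% over all sequences) and 286 overlapped replicate 2 (10.3%, against 11.5%). Counted once each, 81 members overlapped both replicates (2.93%, against 3.04%), and 2042 overlapped neither (73.8%, exact 95% interval 72.1 to 75.4, against 71.9%). All these shares were close to those of the whole lists, which include the members. For the share in neither replicate the value over all sequences lay slightly below the interval, and for the other shares it lay within theirs. These intervals cover counting error only and treat clusters as independent, so no difference is read from them. The median length was 2639 bp for the members in both replicates, 1840 bp for those in replicate 1 only, 1835 bp for those in replicate 2 only and 1295 bp for those in neither. Of the 692 longest members 59.2% overlapped a replicate, and of the 692 shortest 4.05% did. An overlap of at least 1 bp is met more easily by longer clusters. The 692 shortest measured 1001 to 1159 bp, below the 1301 bp at which the replicate lists began. These contrasts in length are thus in part built in. The 81 members in both replicates had a median score of 0.44, against 0.40 in the class without overlap.

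The number of members in both replicates varied between windows. The window 2000001-3000000 held 11 of them (6.18% of its members), followed by 9 each in 6000001-7000000 (5.29%) and 19000001-20000000 (4.50%). The fewest were 1 each in 16000001-17000000 (1.06%) and 17000001-18000000 (1.09%), and also in 7000001-8000000 (0.746%) and 10000001-11000000 (0.758%), outside the sparse stretch. Denser windows give more chances of overlap, and that part was not separated here.

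Spacing and overlap were set side by side as well. A nearest neighbour under 1 kb away was found for 1040 members (37.6%), whose median length was 1463 bp and of which 4.33% overlapped both replicates. For the 1638 members with a nearest neighbour at 1 to 10 kb, the median length was 1399 bp and 2.14% overlapped both. For the 90 members at least 10 kb from any other, the median length was 1267 bp and 1.11% overlapped both, a share that rests on very few clusters. Over all members 2.93% overlapped both, and over all sequences 3.04%. Overlap with at least 1 replicate hardly differed between the first 2 classes, at 27.4% and 26.1%, and was 15.6% in the third. Over all members 73.8% overlapped neither replicate, and over all sequences 71.9%. Length differed between the classes too, and its part was not separated. The median score was 0.40 in each class.

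Set beside other arm interiors cut in the same way, the 2L interior was nearest to 3L. The series-wide list had 145.6 clusters per Mb on 2L, 149.2 on 3L, 171.1 on 3R and 123.7 on X. In replicate 1 the values were 28.5, 30.1, 34.7 and 20.95, and in replicate 2 they were 15.7, 16.4, 20.7 and 13.5, in the same order. The order of the 4 interiors was the same in all 3 lists. Within replicates the density of 2L was 0.951 ± 0.0068 times that of 3L, 0.788 ± 0.045 times that of 3R and 1.26 ± 0.140 times that of X (SD, n = 2). These differences were not tested, since clusters of an arm are not independent. The series-wide ratio of 2L to 3L came to 1.01, on the other side of 1, once clusters up to 1000 bp apart were joined. Among the upper 50% of clusters by score the ratio of 2L to X was 0.581, where the median score on X was higher than on 2L in each list (0.47 against 0.40 in the series-wide list).

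**Figure D5:**
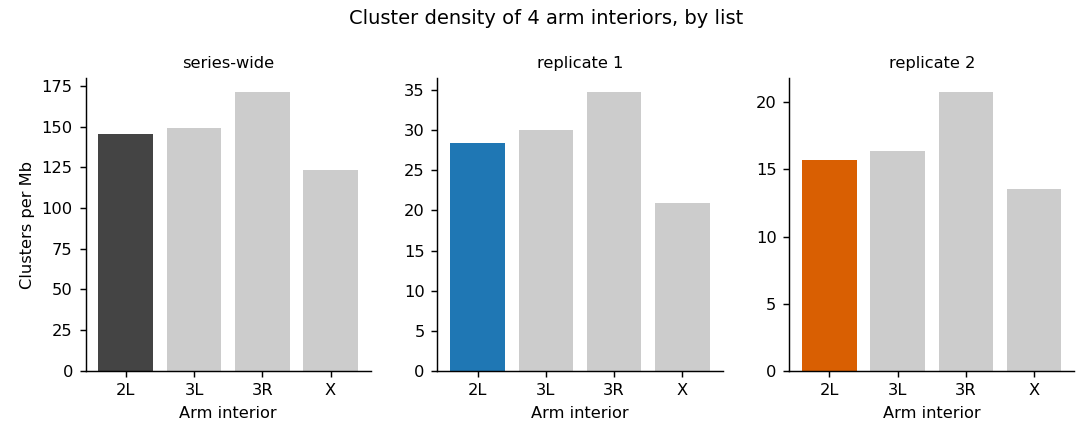
Clusters per Mb (y axis, starting at 0, with its own scale in each panel) in the interiors of 2L, 3L, 3R and X (x axis), for the series-wide list and both replicates, with 2L in colour. In each panel 3R is the highest and X the lowest, and 2L lies just below 3L.

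Evenness and spacing were set beside those of the other interiors as well. The variance of bin counts over their mean was 1.55 on 2L, 1.55 on 3L, 1.31 on 3R and 1.53 on X in the series-wide list. Replicate 1 gave 1.35, 1.29, 1.30 and 1.26, and replicate 2 gave 1.43, 1.39, 1.07 and 1.17, in the same order. In the series-wide list, gaps over 20 kb numbered 5.42 per Mb on 2L, 5.11 on 3L, 3.22 on 3R and 7.38 on X. The replicates had the opposite order, with the most on 3R and the fewest on X. Replicate 1 had 13.9, 14.8, 15.3 and 13.0 per Mb on 2L, 3L, 3R and X, and replicate 2 had 9.94, 10.7, 13.1 and 9.66. The longest replicate gaps were longer on 2L than in the other interiors, at 417590 bp in replicate 1 and 932368 bp in replicate 2, against at most 334553 and 473036 bp elsewhere, both on X. In the series-wide list the longest gap on 2L, 64575 bp, was shorter than the 90755 bp on X. Nothing here was tested as particular to 2L.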

How the data were processed

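ChIP and input libraries were sequenced, and the submitters' processing notes name Bowtie 0.12.7. The sources used here do not give the caller, its threshold or the way replicates were combined. Positions are on FlyBase release 5, per the file headers. The score deposited by the authors for each cluster is on a log2 scale, a reading taken from the values. Raised to base 2, the difference from the list's modal score was a ratio of whole numbers (denominators to 1000, relative tolerance 1e-10) for 99.7% of series-wide, 99.1% of replicate 1 and 100% of replicate 2 scores, and for at most 2.05% in base e or 10. What the score compares is not stated.

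From these lists, clusters were assigned by midpoint to bins of 100 kb and windows of 1 Mb. Gaps are the bases between neighbouring clusters. Overlap means at least 1 bp. No test was run, since there are 2 replicates and clusters of 1 arm are not independent. Precision is limited by the 2 replicates, and read depth is unknown. The counting steps passed 9 checks on simulated data. Named regions are the 5 densest and emptiest bins, the 5 longest gaps, the 5 longest and highest-scored members, and 3 bins and 3 gaps of each replicate. Others were chosen after their values were seen. Members and regions were chosen with earlier results of these data known. No genome sequence of release 5 was used here. The software was matplotlib 3.10.9, pandas 2.3.3, numpy 2.4.6 and scipy 1.17.1 under Python 3.11.15.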

Additional observations from a re-analysis of the deposited data

How the results depend on the processing

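Of 69 alternatives to 13 results, 33 stayed within their margin, 34 moved beyond it and 2 changed direction. The margin was 1 SD between the replicates for medians, gaps and ratios, a factor of 1.5 for counts, 0.1 for rho and the exact interval for shares. The SD between replicates of the gaps is wide, so a median gap of 9233 bp and a longest gap of 207631 bp in the upper 50% by score, and a longest gap of 121531 bp at the minimum length, counted as within it, against 3189 and 64575 bp. The upper 50% by score was not cut within the 2L members, and it left 1108 of the 2768. This setting gave a median of 5.5 per bin, a median length of 1348 bp and a rho of replicate counts over bins of 0.256. It also gave 10.0% of replicate 1 members overlapping replicate 2, and density ratios of 0.910 to 3L and, changed in direction, 0.581 to X. Merging neighbours within 1000 bp gave a median of 11.5 members per bin, a variance to mean ratio of 0.870, median length 1585 bp, and ratios of 0.914 to 3R and, changed in direction, 1.01 to 3L. Only clusters of at least 1301 bp gave 1665 members, a median of 9 per bin, a variance to mean ratio of 1.73 and a ratio of 0.966 to 3L. Covered bases gave 0.962 for 3L. The variance to mean ratio was 1.11 in bins of 50 kb, 2.11 in bins of 200 kb and 1.47 in bins shifted by 50 kb, and rho was 0.241 in bins of 50 kb. Each replicate alone gave 298 to 541 members, a variance to mean ratio of 1.35 to 1.43, median gaps of 19523 to 33628 bp, longest gaps of 417590 to 932368 bp, median lengths of 1467 to 1514 bp, median scores of 0.54 to 0.66, and ratios of 0.946 to 0.956 to 3L, 0.755 to 0.820 to 3R and 1.16 to 1.36 to X. Fewer clusters enter the shorter lists by construction. For the other changes the cause was not tested. No paired analysis was possible because no test was run and the inputs, which share replicate numbers with the ChIP libraries, have no list of their own. Unknown read depth limits every statement on stretches without clusters: a region without a called cluster need not lack H3.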

Other observations

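The highest-scored cluster of each replicate on the 2L interior was missing from both other lists. In replicate 1 it was 8999793-9001108 (1316 bp, score 0.77), and in replicate 2 it was 20150287-20152279 (1993 bp, score 1.37), which lies in the longest series-wide gap. The second-highest cluster of replicate 2, 20196189-20197665 (1477 bp, score 0.97), lay 43.9 kb away from the first and overlapped a series-wide member scored 0.59 but no cluster of replicate 1. In all, 16 replicate 1 members and 13 replicate 2 members overlapped no series-wide cluster, and their median lengths were 1395 and 1368 bp against 1516 and 1468 bp for the others. Despite these 2 clusters, the members without series-wide overlap scored lower in the median, at 0.51 against 0.54 in replicate 1 and 0.60 against 0.66 in replicate 2.

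Stretches over 100 kb without a cluster of either replicate numbered 20 and made up 3.15 Mb, or 16.6% of the interior. After 10138480-10448273 the longest were 15797369-16070430 (273062 bp), 14815774-15040756 (224983 bp), 16484557-16677304 (192748 bp) and 3875724-4040210 (164487 bp). The series-wide list had 20, 22, 18 and 15 complete members in them, with 73.2 to 97.8 per Mb against 145.6 over the interior.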
